A study of Mus musculus with 13 samples.

Results

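Accessibility of the Mertk locus was followed peak by peak in sorted mouse microglia that had met LPS once, again after an earlier dose, or not at all, with or without depletion and regrowth of the cells in between. The locus was taken as every peak that the deposited annotation assigns to Mertk by its nearest transcription start, which gave 7 of 38620 peaks, and all 7 passed the filter on low counts. The assay was ATAC-seq, whose transposase cuts and tags open DNA. The microglia came from male C57BL/6J mice that received an intraperitoneal injection of PBS or 1 mg/kg LPS at 10 weeks of age, an oral course of the CSF1R inhibitor BLZ945 (169 mg/kg per day for 5 days) or its vehicle from the following week, and an injection of PBS or LPS 5 weeks after the first. BLZ945 blocks the receptor that microglia need to survive, and microglia regrow once it is withdrawn.

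Group names give the first injection, BLZ945 where it was used, and the second injection. LBL mice received LPS, BLZ945 and LPS (2 libraries), and LL mice LPS, vehicle and LPS (2 libraries). PBL mice received PBS, BLZ945 and LPS (3 libraries), and PL mice PBS, vehicle and LPS (2 libraries). PBP mice received PBS, BLZ945 and PBS (2 libraries), and PP mice PBS, vehicle and PBS (2 libraries). Cells negative for DAPI and Ly6c, high for CD11b and intermediate for CD45 were sorted 3 h after the last injection, at 15 weeks of age. Cells of 2 animals, 40000 of each, were pooled for a library, so errors below are between pools, and the pools PBL 3_4 and PBL 4_5 both carry the animal number 4 in their names.

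Mertk encodes a receptor tyrosine kinase of the TAM family, together with Axl and Tyro3. Its ligands Gas6 and protein S bridge it to phosphatidylserine on the surface of dying cells, and the bound cell is then engulfed, a process called efferocytosis. In microglia and other macrophages the receptor serves the clearance of dying cells, and in macrophages its signalling also dampens inflammatory responses downstream of Toll-like receptors.

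The main promoter is shown in sequence because the called change of a single peak with the smallest p was there. The RefSeq window of 250 bases upstream of RefSeq's own start for the gene, which lies upstream of the start in the deposited annotation, is on the + strand at chr2:128698665-128698914 (GRCm38.p6), inside the main promoter peak. Capitals mark GC boxes, GGGCGG read on the minus strand.
Mertk promoter: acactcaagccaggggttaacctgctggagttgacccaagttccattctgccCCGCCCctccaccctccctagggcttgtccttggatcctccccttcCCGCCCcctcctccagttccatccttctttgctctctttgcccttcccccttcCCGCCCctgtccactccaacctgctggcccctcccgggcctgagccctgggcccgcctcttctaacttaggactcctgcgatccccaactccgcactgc
The window held 3 GC boxes, at bases 53 to 58, 99 to 104 and 152 to 157 of the window as printed, with no overlap between them. Of 32851 mouse promoter windows searched on both strands, 32.7% held at least 1. The window was 63.6% G or C and held 7 CpG, against medians of 52.4% and 6 over all windows. No match was found for TATAAA (12.4% of windows), CCAAT (33.8%), the AP-1 motif TGANTCA (6.75%), the PU.1 motif GAGGAAGT (2.44%) or the nuclear receptor site AGGTCA (14%), searched in the same way.

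The gene runs on the + strand of chromosome 2 from 128698956 to 128802894 (GRCm38, mm10). The main promoter peak at the start of the full-length transcript spans 128698133 to 128699398 (1266 bp). Intron 1 holds peak A at 128709415 to 128709780 and peak B at 128719370 to 128719762, and intron 4 holds peak A at 128746367 to 128746803 and peak B at 128747459 to 128747893. A peak annotated as a promoter too lies within the gene at 128770945 to 128771650, over the start of a shorter annotated transcript at 128771313, and is called the internal start. The last peak, at 128782275 to 128782585, overlaps exon 14 of 19. Levels are in CPM, the usual depth-scaled unit, here relative to each library's TMM-scaled total in peaks. Per kb of peak, the main promoter and intron 4 peak B were the most open, at a mean of 62.5 and 63.4 CPM per kb over the 13 libraries, and the exon 14 peak the least, at 24.7 CPM per kb.

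**Figure D1:**
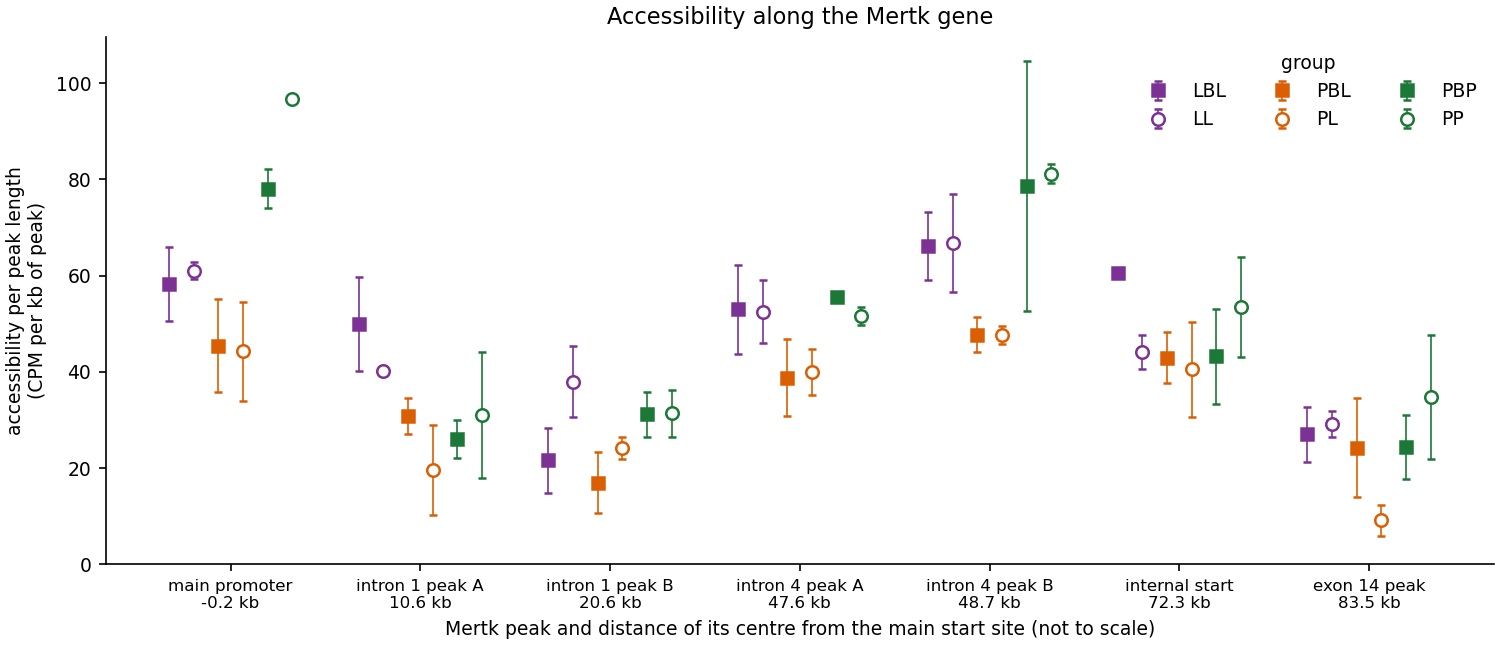
Group mean accessibility (CPM per kb of peak) of the 7 Mertk peaks in order along the gene, with the distance of each peak's centre from the main start site in kb; squares are groups given BLZ945, open circles groups given vehicle, and bars the SD over 2 or 3 libraries. The main promoter is highest in PP and PBP, and the internal start is highest in LBL.

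Libraries held 927840 to 2772688 counts in peaks. A Mertk promoter value rested on 87.5 to 187.5 deposited counts, whereas the exon 14 peak had 4.5 to 24.5, so the precision of the smaller peaks is limited by counting. PL 3_4 stood apart, with 53.2% of its counts in promoter peaks against 55.5% to 60.1% in the other libraries, and it differed from PL 1_2 by 1.84 in chi-square per degree of freedom against 0.978 to 1.15 for the other replicate pairs. For the LBL pair the difference was within counting noise if each deposited unit is an independent event (0.978, p = 0.999 by the chi-square test), which the 0.5-unit steps of the counts leave unknown. It was kept as 2 libraries and also counted as 1. The sorter was an XDP for LBL, LL and PBL and an Astrios for PL, PBP and PP, and LBL, LL and PBL each had an isolation day of their own. Sorter and day thus cannot be told apart from treatment in PBL against PBP and LBL against PBP. Nor can day be told apart from group in LBL against PBL and LBL against LL. PBP and PL 1_2 shared isolation day 1, and PP and PL 3_4 shared day 2. Day and group therefore also go together in PBP against PP. In LL against PP, LL against PL and PBL against PL, both sorter and day go with group.

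Mertk was chosen by its promoter accessibility in PL against PP, where it was lower, so every value that rests on PL or PP libraries is given without a test. The main promoter had 65.2 and 46.9 CPM in PL, against 123.1 and 121.8 CPM in PP. Both PL libraries lay far below both PP libraries, and PL 3_4, which shared its isolation day and sorter with PP, was the lower of the pair. The log2 fold change was -1.14 ± 0.161 (SE), with -0.92 when PL 3_4 was left out and -1.38 when PL 1_2 was.

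The same question was asked of microglia that had regrown after depletion, in libraries other than those of PL and PP. The promoter was lower after a first LPS dose in these cells, where sorter and isolation day also differed between PBL and PBP. The main promoter had 70.2, 56.4 and 45.8 CPM in PBL, against 95.2 and 102.6 CPM in PBP. All 3 PBL libraries lay below both PBP libraries. The promoter fell 1.77-fold, a log2 change of -0.83 ± 0.138 (SE; 95% interval -1.10 to -0.55; adjusted p = 1.8e-06 by edgeR's quasi-likelihood test). PBL and PBP share no library with PL and PP. In bulk pools, a smaller share of cells with an open promoter and a less open promoter in each cell cannot be told apart.

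**Figure D2:**
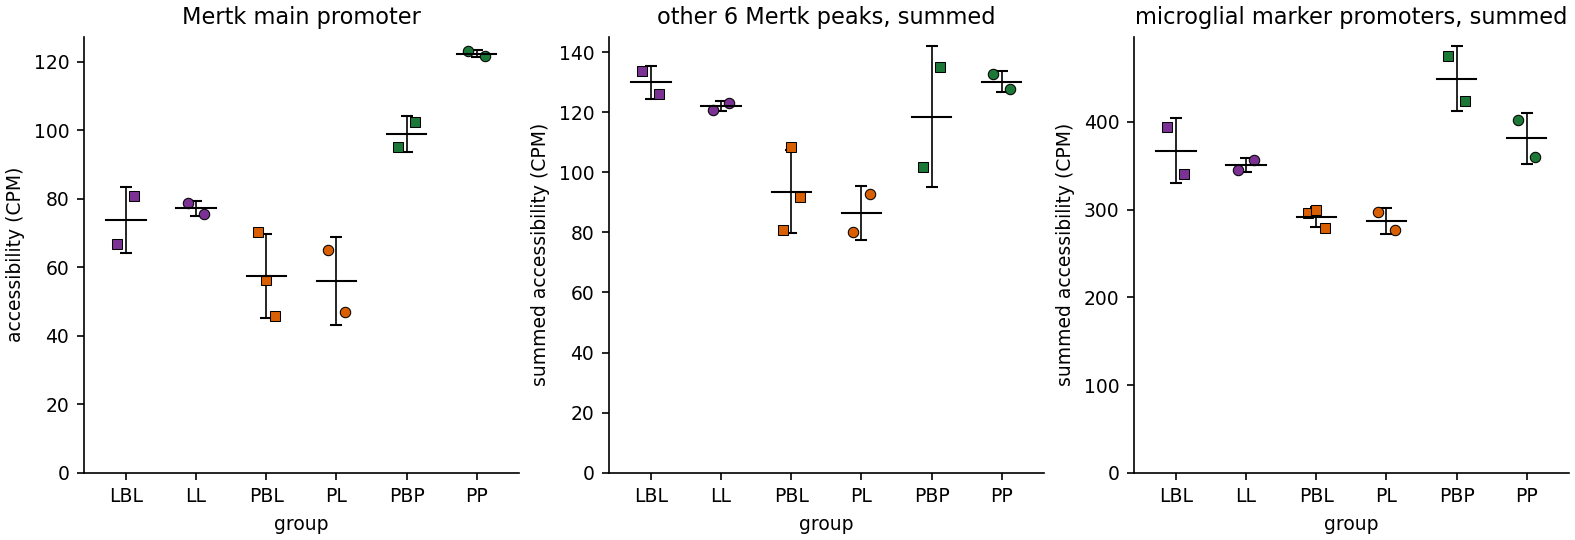
Accessibility (CPM) of the main Mertk promoter peak, of the 6 other Mertk peaks summed, and of the promoters of microglia markers summed. Points are libraries and bars the group mean and SD, in LBL, LL, PBL, PL, PBP and PP. At the promoter every library of the groups that ended with LPS lies at or below 80.7 CPM, and every library of PBP and PP lies at or above 95.2 CPM.

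After a second LPS dose the promoter stood between these levels. It had 66.9 and 80.7 CPM in LBL and 78.9 and 75.6 CPM in LL. Both LBL libraries lay below both PBP libraries, but the difference was not called (-0.41 ± 0.148, 95% interval -0.70 to -0.11, adjusted p = 0.0942). LBL was 0.42 ± 0.141 above PBL on the log2 scale, which was not called either (adjusted p = 0.0968), and the groups overlapped, since PBL 1_2 at 70.2 CPM lay above LBL 1_2. Without PBL 1_2 the difference was 0.55 and called (adjusted p = 0.0322). Between LBL and LL the promoter differed by -0.05 ± 0.144, with a 95% interval from -0.34 to 0.23 (adjusted p = 0.964).

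In order from low to high, the promoter averaged 56.0 ± 13.0 CPM in PL, 57.5 ± 12.2 in PBL, 73.8 ± 9.76 in LBL, 77.3 ± 2.27 in LL, 98.9 ± 5.22 in PBP and 122 ± 0.924 in PP (SD; n = 3 for PBL and 2 for the others). Neighbours from PL up to LL overlapped, while LL and PBP, and PBP and PP, did not. As descriptions, LL differed from PP by -0.67 ± 0.148 (SE), LL from PL by 0.47 ± 0.151 (0.23 without PL 3_4), PBP from PP by -0.31 ± 0.150 and PBL from PL by -0.00 ± 0.148 on the log2 scale. Isolation day differed in each of these pairs of groups, and so did the sorter except between PBP and PP.

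The other peaks of the locus were compared in the same groups; differences between peaks were not tested. In PBL against PBP, 2 of the 7 peaks were called, both lower, against 3.23% of all 37516 tested peaks called lower. The other one called was intron 4 peak B, which had 19.0, 21.3 and 22.0 CPM in PBL and 26.2 and 42.2 CPM in PBP. All PBL libraries were below both PBP libraries, which themselves lay far apart. It fell by 0.67 ± 0.212 on the log2 scale (SE, adjusted p = 0.0241). That call was lost with DESeq2 (-0.70, adjusted p = 0.168) and without PBL 1_2 (adjusted p = 0.0585), PBL 3_4 (adjusted p = 0.0534) or PBP 3_4, and without PBP 3_4 the change was only -0.33 (adjusted p = 0.633).

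Intron 1 peak B and intron 4 peak A also had all PBL libraries below both PBP libraries but were not called (-0.80 ± 0.331, adjusted p = 0.118, and -0.53 ± 0.237, adjusted p = 0.161). In all, 4 of 7 peaks were lower with no overlap, against 17.8% of all tested peaks. Intron 1 peak A, the internal start and the exon 14 peak had log2 changes of 0.29 ± 0.322, 0.03 ± 0.204 and 0.06 ± 0.369, and their groups overlapped. For the internal start the 95% interval ran from -0.38 to 0.43.

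**Figure D3:**
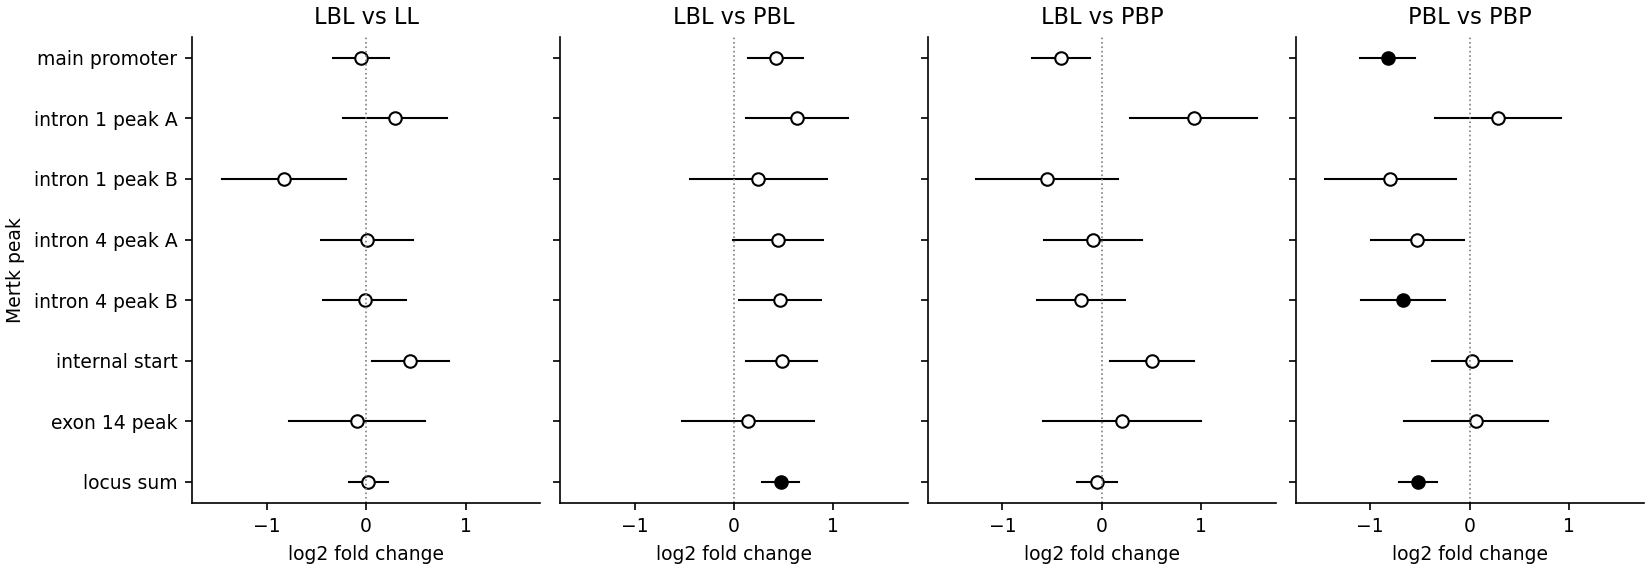
Log2 fold changes of the 7 Mertk peaks and their sum in the 4 tested comparisons, with 95% confidence intervals; filled symbols have an adjusted p under 0.05. In PBL against PBP the main promoter, intron 4 peak B and the sum are filled, and in LBL against PBL the sum is filled while each single peak lies to the right of 0.

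The second LPS dose after regrowth was set against the first in LBL and PBL. No single peak was called by edgeR, DESeq2 or limma-trend. By edgeR's adjusted p, 1.9% of all tested peaks were called in this comparison. All 7 peaks were higher in LBL by the fitted log2 change, from 0.14 at the exon 14 peak to 0.64 at intron 1 peak A, though the exon 14 peak and intron 1 peak B turned with single libraries left out. For 3 of them the groups did not overlap with LBL higher, against 16.8% of all tested peaks. The internal start was one of these, with 42.9 and 42.7 CPM in LBL against 26.7, 34.2 and 30.1 CPM in PBL (0.48 ± 0.181, adjusted p = 0.156). In LL the internal start had 29.4 and 33.0 CPM, and the difference between LBL and LL was not called (0.45 ± 0.194, adjusted p = 0.536).

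Intron 1 peak A, 10.6 kb into the gene, had 20.8 and 15.7 CPM in LBL, against 15.0 and 14.5 CPM in LL, 9.83, 11.6 and 12.5 CPM in PBL and 8.54 and 10.6 CPM in PBP. LBL thus had the highest values of these groups, on a peak of 8 to 36 deposited counts per library. Its lower library was close to LL (15.7 against 15.0 CPM). No share over all tested peaks is given for a separation of LBL from LL or PBP. None of these differences was called with all groups in the fit: 0.92 ± 0.325 in LBL against PBP (adjusted p = 0.0787, and 0.0491 and thus called with only these groups in the fit), 0.64 ± 0.259 in LBL against PBL (adjusted p = 0.201) and 0.29 ± 0.265 in LBL against LL (adjusted p = 0.847). Intron 1 peak B went the other way between LBL and LL, with 10.4 and 6.60 CPM in LBL against 17.0 and 12.9 CPM in LL (-0.83 ± 0.316, adjusted p = 0.454). In LBL against PBP 0 of 7 peaks were called by edgeR, DESeq2 or limma-trend, where edgeR called 4.82% of all tested peaks. In LBL against LL 0 of 7 were called by any of these tools, where edgeR called 0.0506% of all tested peaks.

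**Figure D4:**
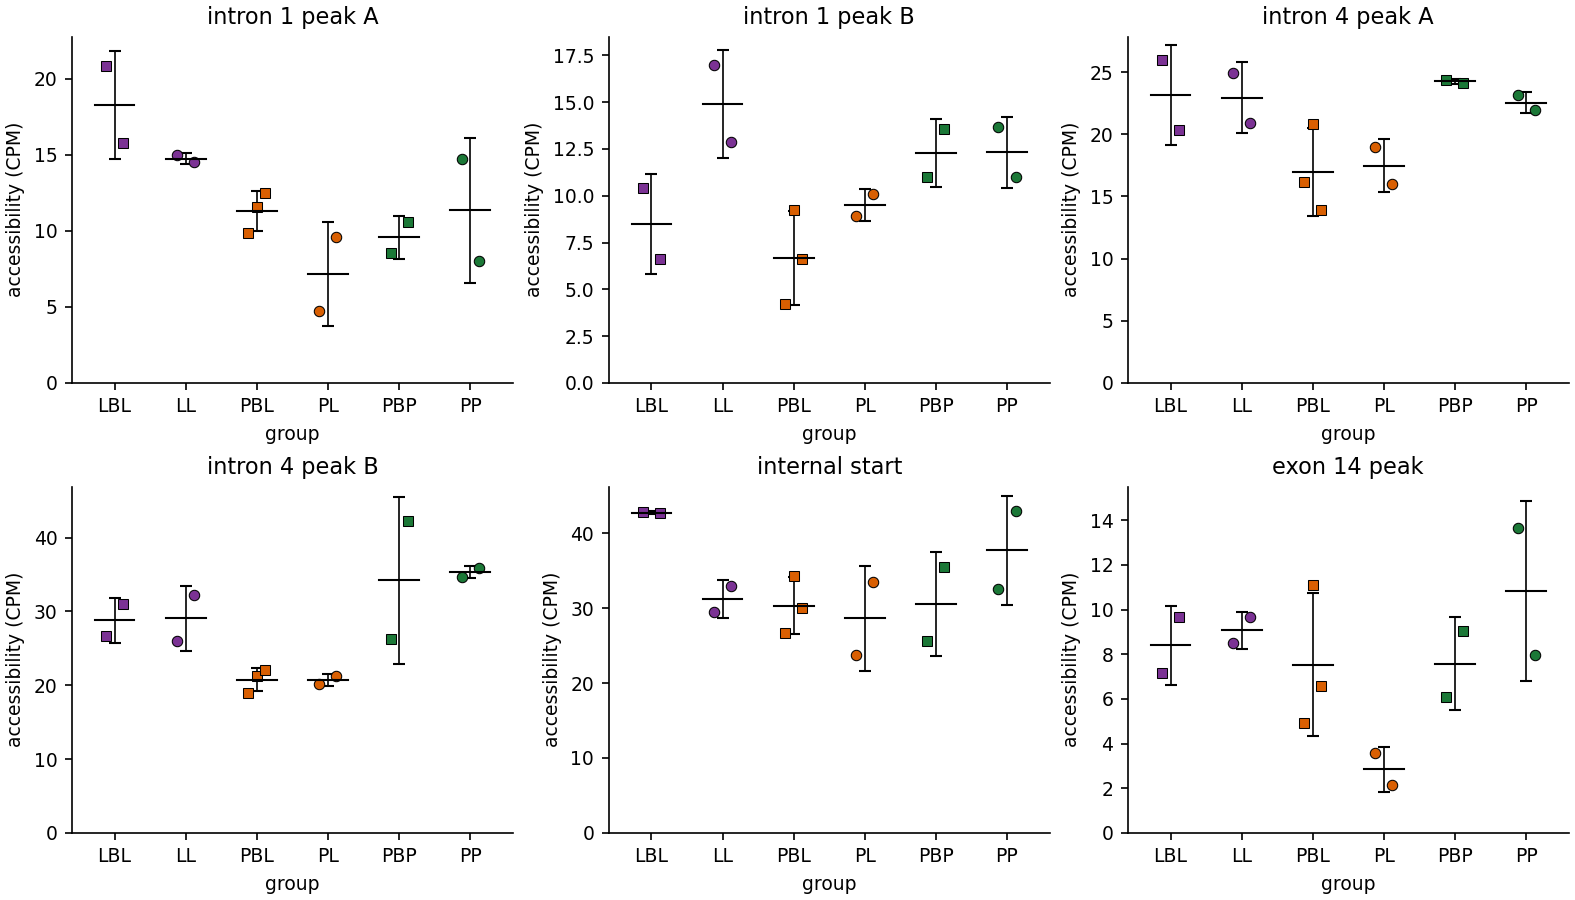
Accessibility (CPM) of each of the 6 Mertk peaks other than the main promoter, per library (points) with the group mean and SD (bars). The internal start is highest in LBL at 42.8 CPM on average, though PP 3_4 reaches 42.9 CPM. Intron 4 peak B averages 20.7 CPM in PBL and in PL.

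Summing the counts of all 7 peaks gave a value with less counting error. The locus had 203 and 208 CPM in LBL, 202.3 and 202.1 in LL, 148, 164 and 135 in PBL, 144.1 and 144.3 in PL, 192 and 237 in PBP and 254 and 245 in PP. PBL and PL thus lay below all other libraries, and LBL and LL lay within the range of PBP. In PBL against PBP the sum fell by 0.52 ± 0.0957 on the log2 scale (SE, adjusted p = 5.96e-05 over 14027 gene loci, of which 2.82% were called lower). Without PBP 3_4 it was -0.38 and missed the threshold (adjusted p = 0.0502).

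In LBL against PBL the sum was 1.38-fold higher (0.47 ± 0.0938, adjusted p = 0.00232), where 0.984% of all loci were called higher. The call was lost without LBL 1_2 (adjusted p = 0.0558), LBL 3_4 (adjusted p = 0.105) or PBL 4_5 (adjusted p = 0.063), with changes of 0.39 to 0.55 over all libraries left out in turn. It held with the LBL pair counted as 1 library (0.47, adjusted p = 0.0194). The sum differed by -0.05 ± 0.103 between LBL and PBP (95% interval -0.25 to 0.15, adjusted p = 0.885; 4.86% of loci called) and by 0.02 ± 0.0981 between LBL and LL (95% interval -0.17 to 0.22, adjusted p = 0.984; 0.0855% of loci called). As descriptions, the locus differed by -0.79 ± 0.112 in PL against PP, by -0.30 ± 0.105 in LL against PP and by 0.49 ± 0.103 in LL against PL. All 7 peaks were lower in PL than in PP and higher in LL than in PL by the fitted change, except that the internal start in LL against PL (0.12 ± 0.210) turned to -0.113 with a library left out.

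The main promoter and the other 6 peaks did not take equal shares of these sums. The 6 peaks summed had 134 and 126 CPM in LBL, against 80.8, 108 and 91.7 CPM in PBL and 102 and 135 CPM in PBP. LBL lay above PBL without overlap and within the range of PBP. The difference was 0.45 ± 0.112 in LBL against PBL (adjusted p = 0.0118; lost without LBL 1_2, LBL 3_4, PBL 1_2 or PBL 4_5, with adjusted p up to 0.214, and with DESeq2 at 0.423). It was -0.31 ± 0.118 in PBL against PBP (adjusted p = 0.0779), which was called without PBL 3_4 (-0.43, adjusted p = 0.025) and without PBP 1_2 (-0.53, adjusted p = 0.0167). In LBL against PBP it was 0.14 ± 0.126 (adjusted p = 0.624). The promoter held 36.1 ± 4.02% of the locus count in LBL, 38.9 ± 1.16% in LL, 38.0 ± 7.33% in PBL, 39.0 ± 7.85% in PL, 45.7 ± 3.40% in PBP and 48.4 ± 0.534% in PP (SD). The shares were not tested, and PBL and PBP overlapped.

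Summed promoter accessibility of microglia markers also lay lower in PBL than in PBP. Of 8 marker genes, 7 had a tested promoter peak (Fcrls had none), and their promoters summed to 394 and 341 CPM in LBL, 345 and 356.5 in LL, 296, 300 and 279 in PBL, 298 and 277 in PL, 475 and 423 in PBP and 402 and 360 in PP. PBL lay below PBP without overlap, as at the Mertk promoter; the part of this in the Mertk values was not tested. Neutrophil (4 genes), lymphocyte (5) and neuron (5) markers had no tested promoter peak. Astrocytes also use Mertk, and of 7 astrocyte markers Gfap, Aqp4, Slc1a2, Gja1 and Sox9 had no tested promoter peak. The other 2, Aldh1l1 and Slc1a3, summed to 70.6 to 79.9 CPM in LBL, 63.4 to 66.8 in LL and 56.9 to 63.4 in PBL. They summed to 57.0 to 65.8 CPM in PL, 63.5 to 74.7 in PBP and 57.9 to 64.2 in PP. LBL thus lay above every group but PBP without overlap. Border macrophage promoters (2 of 6 genes) summed to 13.9 to 30.2 CPM over all libraries and oligodendrocyte promoters (2 of 5) to 18.9 to 33.2 CPM. The single monocyte promoter of 4 genes had 36.4 to 38.6 CPM in LBL, 27.9 to 32.2 in LL, 32.3 to 41.6 in PBL, 24.3 to 34.6 in PL, 28.7 to 30.5 in PBP and 18.9 to 20.0 in PP, and endothelial and mural promoters (2 of 5) had 53.4 to 90.0 CPM. Their part in the result was not tested.

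Assignment by nearest start leaves a peak within the Mertk gene to its neighbour. The peak at 128796484 to 128796977 lies in intron 18 of Mertk but is nearer to the start of Tmem87b, and it had 25.3, 33.3 and 28.6 CPM in PBL and 34.2 and 45.3 CPM in PBP (-0.42 ± 0.194, adjusted p = 0.181). A peak 3397 bp past the end of Mertk, at 128806291 to 128807049, had 33.7, 35.2 and 34.8 CPM in PBL, against 54.3 and 49.8 CPM in PBP. It fell by 0.59 ± 0.172 on the log2 scale (SE, adjusted p = 0.0125), a call lost without PBP 1_2 (-0.54, adjusted p = 0.194), without PBP 3_4 (-0.65, adjusted p = 0.0518) and with DESeq2 (adjusted p = 0.109). Both LBL libraries, at 48.1 and 45.2 CPM, lay above all PBL libraries there, and the difference was not called (0.42 ± 0.170, adjusted p = 0.192). The promoters on either side were not called in PBL against PBP, with -0.18 ± 0.238 at Anapc1 (128686968 to 128687659) and -0.22 at Tmem87b (128817460 to 128818791). Nor was the last flanking peak, at 128855302 to 128855756, with 11.2, 13.0 and 12.1 CPM in PBL and 13.4 and 15.1 CPM in PBP (-0.22 ± 0.282, adjusted p = 0.740).

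Across the 13 libraries, the 5 peaks whose log2 CPM was most like that of the Mertk promoter lay in an intron of Cmtm7 (Pearson r = 0.948), in a 3' UTR near Mir7028 (0.937) and at the promoters of Ypel2 (0.936), Hdac5 (0.935) and Trim47 (0.929). The median over the 37509 tested peaks outside the locus was -0.00. Within the locus, r with the promoter was 0.78 for intron 4 peak B, 0.67 for intron 4 peak A, 0.55 for the exon 14 peak, 0.43 for intron 1 peak B, 0.21 for the internal start and -0.00 for intron 1 peak A. The points share libraries, depth and groups, so these are descriptions.

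Of the 5 genes of the TAM list, Mertk alone was called in PBL against PBP by locus sums. Of all loci, 2.82% were called lower and 5.42% higher. Mertk had been chosen for its lower promoter in PL against PP, and its sum changed by only -0.38 without PBP 3_4. The sister receptor Axl had 36.6 ± 6.67 CPM in PBL and 39.1 ± 0.0362 CPM in PBP (SD; -0.06 ± 0.185 SE, adjusted p = 0.921). Tyro3, at 7.90 ± 2.78 CPM in PBL and 4.95 ± 3.64 CPM in PBP, differed by 0.74 ± 0.422 (adjusted p = 0.348). The ligand Gas6 had 82.9 ± 3.70 CPM in PBL and 104 ± 11.8 CPM in PBP (-0.32 ± 0.116, adjusted p = 0.0712), and the ligand gene Pros1, which encodes protein S, had 72.0 ± 2.22 CPM in PBL and 61.0 ± 3.41 CPM in PBP (0.23 ± 0.133, adjusted p = 0.359). Whether Mertk differs from Axl or Tyro3 in its response was not tested.

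The wider set of uptake genes showed no common direction in PBL against PBP. Of 63 genes besides Mertk, 56 were tested, of which 5 were called higher, 3 lower and 48 neither, where 5.42% and 2.82% of all loci were called higher and lower, and their median log2 change was 0.01 (-0.00 over all loci). Rises were found at the lipid-binding receptors Cd36 (0.79 ± 0.153, adjusted p = 0.000114) and Cd300lf (0.70 ± 0.104, adjusted p = 8.81e-07), both of which were called with each library left out. Rac1, the GTPase that drives engulfment, rose by 0.55 ± 0.133 (adjusted p = 0.00269; lost without PBP 1_2 or PBP 3_4), and Cx3cr1, the fractalkine receptor, fell by 0.34 ± 0.0864 (adjusted p = 0.00426; lost without PBP 1_2).

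Among transcription factors of uptake genes, Rxra, the partner of nuclear receptors, fell by 0.32 ± 0.0974 (adjusted p = 0.0248) and Maf by 0.26 ± 0.0836 (adjusted p = 0.0364). Among genes of Mertk shedding, the protease Adam10 rose by 0.29 ± 0.0855 (adjusted p = 0.0176) and Rhbdf2, which guides the maturation of Adam17, by 0.37 ± 0.116 (adjusted p = 0.0292). Each of these 4 calls was lost without at least 3 of the 5 libraries left out in turn, PBP 1_2 and PBP 3_4 in every case. Adam17 itself, the main sheddase of Mertk, was not called (0.29 ± 0.105, adjusted p = 0.0739). The list counts moved with the libraries, to 2 higher and 1 lower without PBP 1_2, to 3 and 1 without PBP 3_4, to 4 and 1 without PBL 1_2, to 3 and 4 without PBL 3_4, to 6 and 2 without PBL 4_5 and to 3 and 1 with DESeq2.

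In LBL against PBP 7 of the 56 were higher and 0 lower (4.08% of all loci higher, 0.784% lower; list median 0.13), and 2 to 5 were higher with 1 library left out, the fewest without PBP 1_2, and 3 with DESeq2. In LBL against PBL the integrin gene Itgb5 alone was called, higher by 0.32 ± 0.0833 (adjusted p = 0.0275; list median 0.08), and lost its call without any 1 of the 5 libraries and with DESeq2. In LBL against LL Cd36 alone was called, with 74.2 ± 4.54 CPM in LBL and 27.4 ± 0.0718 CPM in LL (SD; 1.43 ± 0.170 SE, adjusted p = 4.91e-08; list median -0.01), and it was called with each library left out. These were named because each was the single call among the 56. Of all loci, 0.984% were called higher in LBL against PBL, and 0.0855% were called in either direction in LBL against LL.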

How the data were processed

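ATAC-seq libraries were grouped by the treatments in the labels. The deposited table gives estimated counts of every library in each peak, which move in steps of 0.5 and were not normalized by the authors (the counting tool: not given in the sources used here). Among others, Bowtie2 2.2.6, MACS2 2.1.1 and ChIPseeker 1.38 are named with the builds GRCm38 and mm10, per the submitters' processing notes. Peak widths and distances to the nearest start are in bp, per the file headers. Whether reads were shifted for the offset of the transposase is not recorded.

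Counts were rounded to whole numbers and fitted in R 4.3.3 with edgeR 4.0.16: filterByExpr at a minimum count of 10 (37516 of 38620 peaks), TMM scaling, 6 group means over 13 libraries, robust quasi-likelihood F tests, two-sided, with Benjamini-Hochberg adjustment over all tested peaks. Locus values are counts summed over all peaks of a symbol, fitted likewise over 14027 loci. A feature was called at an adjusted p under 0.05. The SE is the log2 change divided by the square root of F. Of 9 comparisons given, the 4 without PL or PP were tested. Group n are 2 or 3 pools, and the p-values rest on a spread between pools estimated over all 13 libraries. At small peaks the fitted SE was no larger than that expected from counting alone. It was 0.325 against 0.328 at intron 1 peak A in LBL against PBP, and 0.316 against 0.321 at intron 1 peak B in LBL against LL. No spread between pools beyond counting was resolved there, if deposited units are independent events. Adjusted p-values with a library left out assume that a lone library varies like the other groups.

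Alternatives were DESeq2 1.42.0, limma-trend (limma 3.58.1), other scalings, no filter, doubling of the 0.5-step counts, a replicate block, a fit to the compared groups alone, other locus definitions, each library left out, and, chosen after seeing the data, the LBL pair, the PP pair and PBL 3_4 with PBL 4_5 each counted as 1 library. The fits were tested on simulated data. Mertk, the lists and the markers were chosen with earlier results of these data known, and the motifs after the promoter sequence was at hand. Genes named are all Mertk peaks, flanking peaks within 100 kb, the 5 most similar peaks, and of each uptake list the 2 called members with the smallest p in each direction in PBL against PBP; the TAM list is given whole, and Adam17, Itgb5 and Cd36 in LBL against LL were named after their values were seen. Promoter sequence is from RefSeq.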

Additional observations from a re-analysis of the deposited data

Results flagged for a closer look

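The summed Mertk locus had fitted changes of opposite sign between BLZ945 and vehicle at rest and after a second LPS dose, the second of them near 0. It was lower in both PBP libraries than in both PP libraries (log2 change -0.231 ± 0.109 SE, not tested), and higher in both LBL libraries than in both LL libraries (0.0226 ± 0.0981 SE, 95% interval -0.17 to 0.22, adjusted p = 0.984 by edgeR), which was not called and shows no direction. The difference between these changes was not tested, PP having been used to choose the gene. Isolation day differed along with BLZ945 both between PBP and PP and between LBL and LL, so the 2 cannot be told apart.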

How the results depend on the processing

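The fall of the main promoter in PBL against PBP kept its direction and call in all 15 alternatives, with log2 changes from -0.96 to -0.66 and adjusted p of at most 0.00125. With only the groups compared in the fit, the promoter was called lower in LBL against PBP (-0.40, adjusted p = 0.0416) and intron 1 peak A higher (0.92, adjusted p = 0.0491). Leaving out each library in turn gave ranges of 0.25 to 0.55 for the promoter in LBL against PBL, -0.20 to 0.0682 in LBL against LL, 0.39 to 0.55 for the locus sum in LBL against PBL, -0.67 to -0.38 in PBL against PBP and -0.20 to 0.0926 in LBL against PBP.

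Directions that turned with 1 library left out belonged to changes that were not called: the exon 14 peak in LBL against LL (-0.35 to 0.0814), LBL against PBL (-0.11 to 0.50), LBL against PBP (-0.10 to 0.48) and PBL against PBP (-0.30 to 0.33), the internal start in PBL against PBP (-0.23 to 0.25), intron 1 peak B in LBL against PBL (-0.0737 to 0.58), intron 4 peak A in LBL against LL (-0.16 to 0.19) and LBL against PBP (-0.27 to 0.0886), and intron 4 peak B in LBL against LL (-0.15 to 0.16) and LBL against PBP (-0.55 to 0.14). The main promoter in LBL against LL turned too, to 0.0682 without LBL 1_2. In LBL against PBP so did the locus sum, to 0.0926 without PBP 3_4, and the other 6 peaks summed, to -0.0735 without PBP 1_2. None of these 3 changes was called either. The exon 14 peak also turned in PBL against PBP with the 0.5-step counts doubled (-0.0399) and limma-trend (-0.0479). The cause was not tested.

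With the pool number as a replicate block, the promoter changed by -0.66 (adjusted p = 0.000434) and the locus by -0.44 (adjusted p = 0.00115) in PBL against PBP, and in LBL against PBL the locus by 0.39 (adjusted p = 0.0222) and the exon 14 peak by -0.00513. Whether the numbers pair the samples is not given. Over 15 pairs of libraries numbered 1_2 the correlation of deviations ran from -0.02 to 0.16. Of these, 10 were positive and 1 exceeded 0.1. Counting noise lowers such correlations, so low values cannot show that pairing is absent. The block moved the called peaks from 713 to 472 in LBL against PBL and from 19 to 37 in LBL against LL.

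Called peaks with DESeq2 numbered 1191 in PBL against PBP (3737 with edgeR), 496 in LBL against PBP (1809), 15 in LBL against PBL (713) and 1 in LBL against LL (19). With each library left out they numbered 1732 to 3453, 620 to 989, 88 to 598 and 1 to 8 in the same comparisons. Limma-trend called 263 in LBL against PBL and 2 in LBL against LL. In LBL against LL, 94 were called with only the groups compared, 11 with scaling from non-promoter peaks, and 9 each with the 0.5-step counts doubled and with the LBL pair as 1 library, which gave 445 in LBL against PBL. At the exon 14 peak in PBL against PBP, the SE expected from counting alone (0.370) was as large as the fitted SE (0.369). That value holds only if each deposited unit is an independent event, which is unknown.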
